A study of Mus musculus with 2 samples.

Results

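Heat shock proteins and chaperones help other proteins to fold, keep them from clumping, and hand them on for transport or breakdown. Their genes were chosen by symbol in the deposited counts. Members are the Hsp families, the Dnaj family of J-domain cochaperones, the CCT chaperonin subunits Tcp1 and Cct2 to Cct8, the protein disulfide isomerases named Pdia, and the FK506-binding proteins without Fkbp5. This gave 100 of the 23946 genes with a UMI in either library, of which 99 were found in both and Hspb3 in the control alone. By where the proteins act, 45 members were taken as cytosolic or nuclear, 9 as mitochondrial, and 21 as proteins of the endoplasmic reticulum (ER). The other 25 act elsewhere or in several places, or are pseudogenes.

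In the cytosol, HSP70 proteins bind unfolded stretches with the help of J proteins, HSP90 completes the folding of kinases and receptors, and the ring-shaped CCT complex folds actin and tubulin. Mitochondria and the ER each hold an HSP70 of their own, working with HSP60 and HSP10 in mitochondria and with disulfide isomerases in the ER. Heat shock factor 1 drives many of the cytosolic genes, and the unfolded protein response drives those of the ER.

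The study gave mice isoproterenol (ISO), a beta-adrenergic agonist, as a model of takotsubo syndrome, and profiled the leukocytes of their hearts by scRNA-Seq. All mice were female wild-type animals of 8 to 16 weeks, of the strain C57BL6 by the labels and C57BL/6J by the paper. ISO mice received 200 mg/kg by intraperitoneal injection 24 hours before harvest, and control mice received 100 µL of vehicle. Since the labels state the ISO dose in the protocol of each sample, the title was used to tell which one is the control. Hearts were digested with collagenase, and live CD45+ cells were sorted, pooled from 3 hearts per group, and loaded at 15000 cells on a 10x Genomics 3′ kit, which counts transcripts as unique molecular identifiers (UMIs) near their 3′ end. Each group is thus 1 library, so ISO, library, and sample handling cannot be told apart, and no test between the groups was possible. The control library held 47382455 UMIs in 5927 barcodes and the ISO library 58495112 UMIs in 5514 barcodes.

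Cells were sorted into classes by their marker genes, and chaperones played no part in this. Of the cells that passed the filters, 71.3% in the control and 58% in the ISO library fell into a class. Classes with at least 50 cells in each library were compared. These were resident macrophages (518 control and 188 ISO cells), other macrophages (408 and 229), classical monocytes (67 and 1427), dendritic cells (DCs, 83 and 249), neutrophils (110 and 101), B cells (1988 and 68), and group 2 innate lymphoid cells (ILC2s, 172 and 83). Ptprc, which encodes CD45, was found in every class and library, at 303 to 2358 CPM. Its level was lower in ISO than in the control in each class. It went from 1122 to 380 CPM in classical monocytes, 1842 to 712 in neutrophils, and 590 to 501 in ILC2s. Median depth per cell in the compared classes ranged from 2775 UMIs in control neutrophils to 11263 UMIs in control DCs. UMIs were summed over the cells of a class and library and scaled to the total of the class (CPM). Levels are given control first, then ISO, followed by the log2 ratio of ISO over control with its exact 95% interval, which covers counting error only. A gene was tested when it had at least 20 UMIs over both libraries of a class. It was called when its ratio, with 0.5 UMI added to each count, was 1.5-fold or more. In B cells, Dnajb9, Dnajc30, and Fkbp11 were thus called higher at CPM folds of 1.49, 1.48, and 1.45. Cells of the same class also differed in their markers. Median marker UMIs per 10000 in neutrophils went from 1051 to 474 for neutrophil, 4.7 to 38.8 for recruited macrophage, and 19.1 to 32.3 for classical monocyte markers. In other macrophages they went from 136 to 87.8 for macrophage and 0 to 8.88 for recruited macrophage markers, and those for classical monocytes were also higher in ISO. Recruited macrophage markers went from 28.9 to 57.8 in classical monocytes and from 0 to 2.21 in B cells, where those of classical monocytes went from 5.63 to 24.7. In each class a change in the kinds of cell present and a change within cells cannot be told apart. The 7 comparisons use the same libraries, so likeness between classes is not independent evidence.

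With the settings used here, more chaperone genes were called higher in ISO than lower in each of the 7 classes. Exceptions were classical monocytes with a minimum of 1 UMI, with 29 higher and 30 lower, and ILC2s with a minimum of 100 UMIs or a fold of 2, with 2 of each. The monocyte shares were 31.2% and 32.3%, against 12.8% and 56.1% of all genes. Those of ILC2s were 5.88% each way against 12.6% each way, and 3.45% each way against 7.71% and 6.49%. In resident macrophages, 34 of the 77 members tested were called higher, against 19% of all genes tested, and 10 were called lower, against 21%. Other macrophages gave 29 of 75 higher, against 21.5% of all genes, and 8 lower, against 21.7%. Among classical monocytes, 28 of 76 were higher, against 20.1%, and 16 lower, against 35.3%. The share of members called higher thus stood above that of all genes in these 3 myeloid classes, and the share called lower stood below it. DCs gave 25 of 71 members higher, against 18.6%, and 4 lower, against 22%. In neutrophils, where fewer genes could be tested, 33 of 49 were higher, against 32.6%, and 2 lower, against 25.1%. B cells had 33 of 73 higher, against 26.2%, and 4 lower, against 26.3%. ILC2s stood apart, since 9 of 58 members higher lies below the 20.8% of all genes, with 3 lower against 14.6%. Keeping 2-lineage barcodes, which adds cells with markers of another lineage, gave 22 of 67 ILC2 members higher, or 32.8% against 23.8% of all genes. With stricter limits on other lineages the ILC2 share stayed below, at 15.5% against 19.8%. The cause of this difference was not tested. After thinning each cell to 1000 UMIs, the DC share of 27.5% was just below the 28% of all genes. Single-gene ratios given below after thinning rest on fewer UMIs from a single random draw, and no interval is given for them. UMIs of the mitochondrial genome, ribosomal proteins, and the RNA gene Gm26924 took a larger share of the control than of the ISO library in each class but neutrophils. In resident macrophages they took 20.3% and 15.8%, with Gm26924 alone at 5.72% and 1.69%, and the median mitochondrial share per cell was 4.23% and 2.41%. Leaving these UMIs out of the totals gave 28 members higher and 13 lower in resident macrophages and 19 and 5 in DCs. Resident macrophage shares were then 36.4% and 16.9%, against 16.2% and 24.1% of all genes. Those of DCs were 26.8% and 7.04%, against 14.6% and 26.6%. What RNA quality added to the ratios was not tested further. All 7 comparisons had 49 members tested, and 21 members had fewer than 20 UMIs in each of them.

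Each of the cytosolic, mitochondrial, and ER groups had a positive median log2 ratio in all 7 classes with the settings used here. The median of all genes tested lay within 0.1 of 0 in 5 classes, and was -0.24 in classical monocytes and 0.11 in ILC2s. Cytosolic members had medians of 0.44 in resident and 0.40 in other macrophages, 0.44 in classical monocytes, 0.28 in DCs, 1.07 in neutrophils, 0.27 in B cells, and 0.29 in ILC2s. For mitochondrial members the medians were 0.67, 0.80, 0.30, 0.56, 1.48, 0.54, and 0.17 in the same order. ER members gave 0.56, 0.52, 0.38, 0.44, 1.36, 0.96, and 0.26. The ER group had the highest median of the 3 in B cells, and the mitochondrial group in other macrophages, under each setting. Neutrophil medians moved with the gate. They were 0.40 for cytosolic, 0.77 for mitochondrial, and 0.54 for ER members with 2-lineage barcodes kept, and 0.44, 3.66, and 1.92 with stricter limits on other lineages. The mitochondrial value of 3.66 equals the ratio of Hspe1 under those stricter limits. A minimum of 100 UMIs gave a mitochondrial value of 2.21, which is Hspe1 alone, and after thinning no mitochondrial member could be tested in neutrophils. Relative to the median of all genes, the medians in classical monocytes were 0.67 for cytosolic, 0.54 for mitochondrial, and 0.62 for ER members, and those in ILC2s were 0.18, 0.060, and 0.15. The mitochondrial group rests on few genes, with 5 tested in neutrophils and 6 in ILC2s, and its ILC2 median was -0.069 with stricter limits on markers of other lineages.

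**Figure D1:**
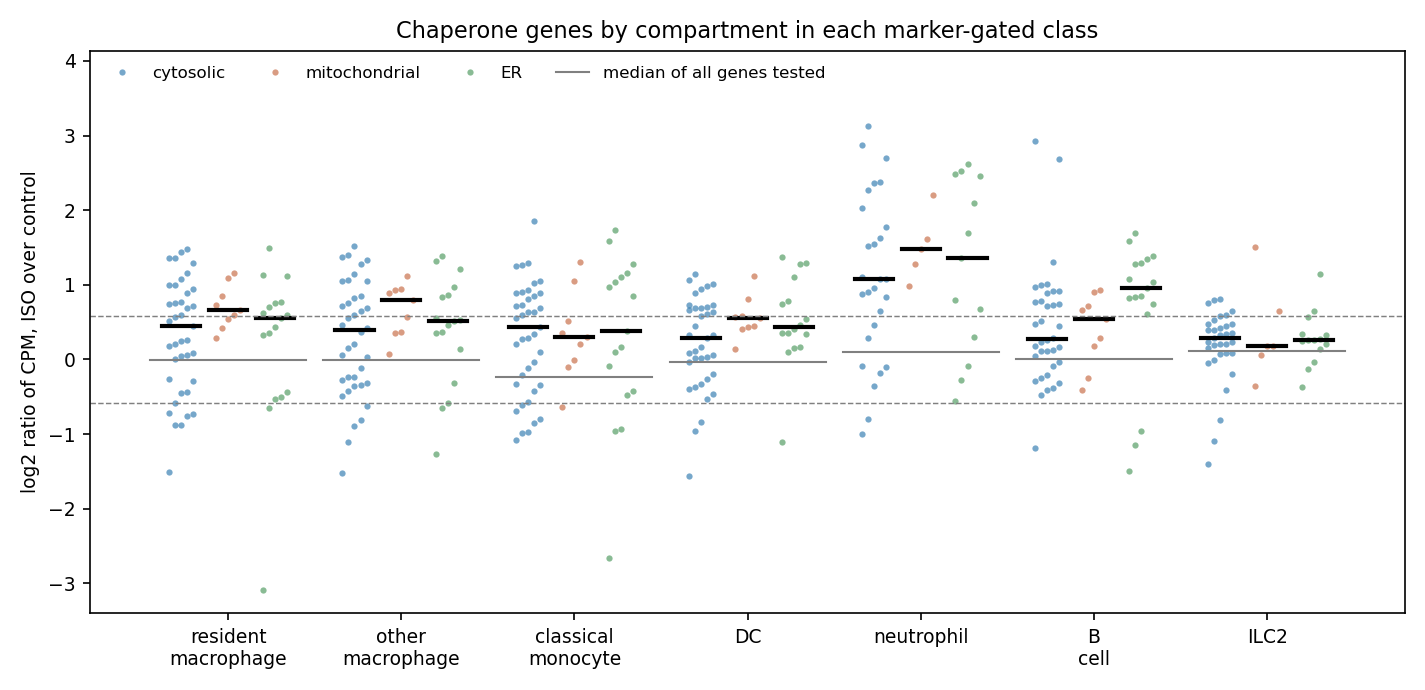
Log2 ratios of CPM, ISO over control, of the cytosolic, mitochondrial, and ER members tested in each class (points), with the median of each group (black bars), the median of all genes tested (grey bars), and the 1.5-fold limits (dashed). With the gates used here, neutrophil medians are 1.07, 1.48, and 1.36, and ILC2s have the lowest mitochondrial and ER medians, 0.17 and 0.26.

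Summed over all members of a group, the levels of the compartments moved by different amounts. ER members together went from 2598 to 4009 CPM in resident macrophages, 2534 to 3787 in other macrophages, 2054 to 3900 in classical monocytes, and 2538 to 4147 in DCs. In neutrophils they went from 993 to 2328 CPM, in B cells from 1596 to 3217, and in ILC2s from 1895 to 2204. Mitochondrial members together went from 614 to 1144 CPM in resident and 603 to 1069 in other macrophages, 617 to 921 in monocytes, 814 to 1219 in DCs, 142 to 449 in neutrophils, 739 to 1144 in B cells, and 783 to 911 in ILC2s. The cytosolic sum was large and changed little in macrophages, from 10699 to 11565 CPM in resident cells, where lower Hspa1a and Hspa1b offset gains elsewhere in the group. It went from 10247 to 11963 CPM in other macrophages, 6834 to 9483 in monocytes, 9193 to 11696 in DCs, 2626 to 5666 in neutrophils, 5621 to 10178 in B cells, and 8921 to 10140 in ILC2s. In fold terms and with these gates, the sums of neutrophils moved most in all 3 groups, with folds of 2.16, 3.17, and 2.34 for cytosolic, mitochondrial, and ER members. The members placed elsewhere had medians from -0.47 in monocytes to 0.45 in DCs, and their sum stayed within 1.5-fold in each class.

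Cytosolic HSP90 had positive ratios in all 7 classes. Hsp90ab1, the constitutive form, was called higher in 5 of them. It went from 2156 to 3204 CPM in resident macrophages, a log2 ratio of 0.57 (0.52 to 0.62), and from 2005 to 3384 CPM in other macrophages, a ratio of 0.76 (0.71 to 0.80). Its level went from 1435 to 2677 CPM in classical monocytes, with a ratio of 0.90, and from 2397 to 3659 CPM in DCs, with a ratio of 0.61. Neutrophils had the lowest control level and the largest ratio, with 465 to 1435 CPM and 1.62 (1.39 to 1.87), or 0.91 with 2-lineage barcodes kept. B cells followed with 1528 to 3783 CPM and 1.31 (1.22 to 1.39), and ILC2s came last with 1997 to 2720 CPM and 0.45 (0.33 to 0.56). After ISO, 6 of the 7 classes lay between 2677 and 3783 CPM, with neutrophils below them. Hsp90aa1, the form that heat shock induces, was called higher in monocytes, neutrophils, and B cells. Its levels went from 281 to 575 CPM in monocytes, 156 to 331 in neutrophils, and 368 to 731 in B cells, with log2 ratios of 1.03, 1.08, and 0.99. The neutrophil ratio was 0.42 with 2-lineage barcodes kept, short of the fold, and 1.97 with cells thinned to 1000 UMIs. In resident macrophages Hsp90aa1 was level, from 587 to 622 CPM and 0.086 (-0.019 to 0.19).

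Hspa8, the constitutive HSP70 of the cytosol, split the classes. It was level in resident macrophages, from 1976 to 2068 CPM with a log2 ratio of 0.066 (0.0088 to 0.12), and in other macrophages, monocytes, DCs, and ILC2s its ratios lay between -0.035 and 0.091. Neutrophils and B cells started much lower and rose past the 1.5 fold, neutrophils from 590 to 1148 CPM, 0.96 (0.74 to 1.19), or 0.28 with 2-lineage barcodes kept, and B cells from 691 to 1284 CPM, 0.90 (0.75 to 1.04). Hspa4, a nucleotide exchange factor of the HSP110 type, was called higher in resident macrophages alone, from 113 to 192 CPM and 0.76 (0.56 to 0.97), which became 0.17 after thinning. Its relative Hsph1 went from 107 to 121 CPM in resident macrophages and from 16.7 to 37.3 CPM in neutrophils, where its ratio of 1.07 (-0.17 to 2.74) turned to -0.33 when barcodes with markers of 2 lineages were kept. Hspa2, a testis-rich HSP70 named after its values were seen, was called lower in resident macrophages, monocytes, and ILC2s, with 43.8 to 15.2 CPM and -1.41 (-3.22 to -0.20) in ILC2s. Hspa14, a ribosome-bound HSP70, stayed within 1.5-fold in each class, from 112 to 130 CPM and 0.24 (-0.27 to 0.68) in B cells.

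With the gates used here, Hspa1a and Hspa1b, the neighbouring genes for the stress-induced form of HSP70, showed the widest differences between classes. Hspa1b was lower in both macrophage classes, from 1512 to 534 CPM in resident macrophages, -1.50 (-1.60 to -1.40), and from 1211 to 421 CPM in other macrophages, -1.52 (-1.63 to -1.42). It was also lower in DCs, from 467 to 261 CPM and -0.84 (-1.01 to -0.66), and in ILC2s, from 722 to 337 CPM and -1.09 (-1.40 to -0.81). In neutrophils the reverse held with the gates used here, from 50.1 to 210 CPM and 2.03 (1.35 to 2.87), which turned to -1.37 with 2-lineage barcodes kept. It held in B cells too, from 27.8 to 178 CPM and 2.69 (2.23 to 3.11), or 0.66 with those barcodes kept. With the gates used here, control macrophages had levels more than 20-fold above those of control neutrophils and B cells. That distance depends on the gates, since with 2-lineage barcodes kept control Hspa1b was 1266 CPM in resident macrophages, 665 in neutrophils, and 141 in B cells. Hspa1a moved less in macrophages, from 1877 to 1255 CPM in resident cells, -0.58 (-0.65 to -0.51), and from 1643 to 1229 CPM in other macrophages, -0.42 (-0.49 to -0.35). DCs held Hspa1a level, from 667 to 678 CPM and 0.024 (-0.11 to 0.16), whereas the ILC2 ratio, 0.21 (-0.097 to 0.50) from 342 to 395 CPM, was -0.61 with 2-lineage barcodes kept and 0.69 with stricter limits. Neutrophils went from 61.2 to 459 CPM, 2.88 (2.28 to 3.60), and B cells from 32.7 to 248 CPM, 2.93 (2.54 to 3.30). Keeping 2-lineage barcodes turned the neutrophil ratio to -0.56 and gave 0.98 in B cells.

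Few cells carried some of these values. Of the 203 Hspa1b UMIs in control classical monocytes, 120 came from 1 cell, and the class went from 363 to 186 CPM with a log2 ratio of -0.97 (-1.18 to -0.76). Without the cell with most UMIs in each library, an alternative chosen after seeing the data, Hspa1b in monocytes went from 151 to 182 CPM and its ratio turned to 0.27 (-0.039 to 0.61). Hspa1a in monocytes went from 313 to 519 CPM, 0.73 (0.51 to 0.96), and without that cell from 192 to 512 CPM, 1.41, or 1.80 with stricter limits. The direction of Hspa1b in monocytes is therefore not given here as a result. B cells of the ISO library were 68, and the 5 highest for each gene held 69.2% of the Hspa1a and 71.4% of the Hspa1b UMIs. Leaving out the highest cell in each library gave B cells log2 ratios of 2.55 for Hspa1a and 2.53 for Hspa1b, and keeping 2-lineage barcodes gave 0.98 and 0.66. In neutrophils the first step gave 2.82 and 2.36, so the ratios kept their sign. The 5 highest neutrophils held 50% of control and 66.1% of ISO Hspa1a UMIs, and 77.8% and 50.4% of Hspa1b UMIs. With stricter limits Hspa1a had 1.85, and under 10% mitochondrial UMIs Hspa1b had 3.11. The direction did rest on the gate, since the ratios turned to -0.56 and -1.37 when neutrophil barcodes with markers of another lineage were kept, which raised the cells from 110 to 267 in the control and from 101 to 501 in the ISO library. The 5 highest ILC2s held 49.1% of control and 61.5% of ISO Hspa1a UMIs, and 35.5% and 48.7% of Hspa1b UMIs. Without the highest cell, ILC2 ratios were -0.026 (-0.38 to 0.30) for Hspa1a and -1.37 for Hspa1b. The 5 highest control DCs held 42.4% of Hspa1a and 43.3% of Hspa1b UMIs, and without the highest cell DC ratios were 0.11 and -0.85.

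Transcripts of macrophages were also present in the other classes. Summed over the 9 macrophage markers found, the level in neutrophils went from 267 to 541 CPM and in B cells from 131 to 264 CPM, against 18817 to 16230 CPM in resident macrophages. The most abundant of these markers was Csf1r in control and Cd68 in ISO neutrophils, and C1qa in control and Cd68 in ISO B cells, with Mrc1 and Ms4a7 at 0 in the latter. The gates of neutrophils and B cells kept only barcodes with under 10 macrophage marker UMIs per 10000. Their macrophage marker levels were thus bounded by the gates. The part of macrophage RNA in the higher Hspa1a and Hspa1b of neutrophils and B cells was not tested further. Immediate early genes, which cell dissociation is known to raise along with Hspa1a and Hspa1b, moved too. Their 14 genes together went from 19799 to 14565 CPM in resident macrophages, with 5 called lower and 1 higher, against 21% and 19% of all genes, and a median log2 ratio of -0.52. In B cells their sum was level, from 6154 to 6211 CPM, with 5 called higher and 3 lower, against 26.2% and 26.3% of all genes, and Jun, a subunit of the AP-1 factor, went from 150 to 547 CPM, 1.87 (1.62 to 2.10). Their median was -0.45 in other macrophages, -0.42 in monocytes, -0.49 in DCs, -0.53 in neutrophils, and -0.021 in ILC2s. What sample handling added to the Hspa1a and Hspa1b levels was not tested.

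**Figure D2:**
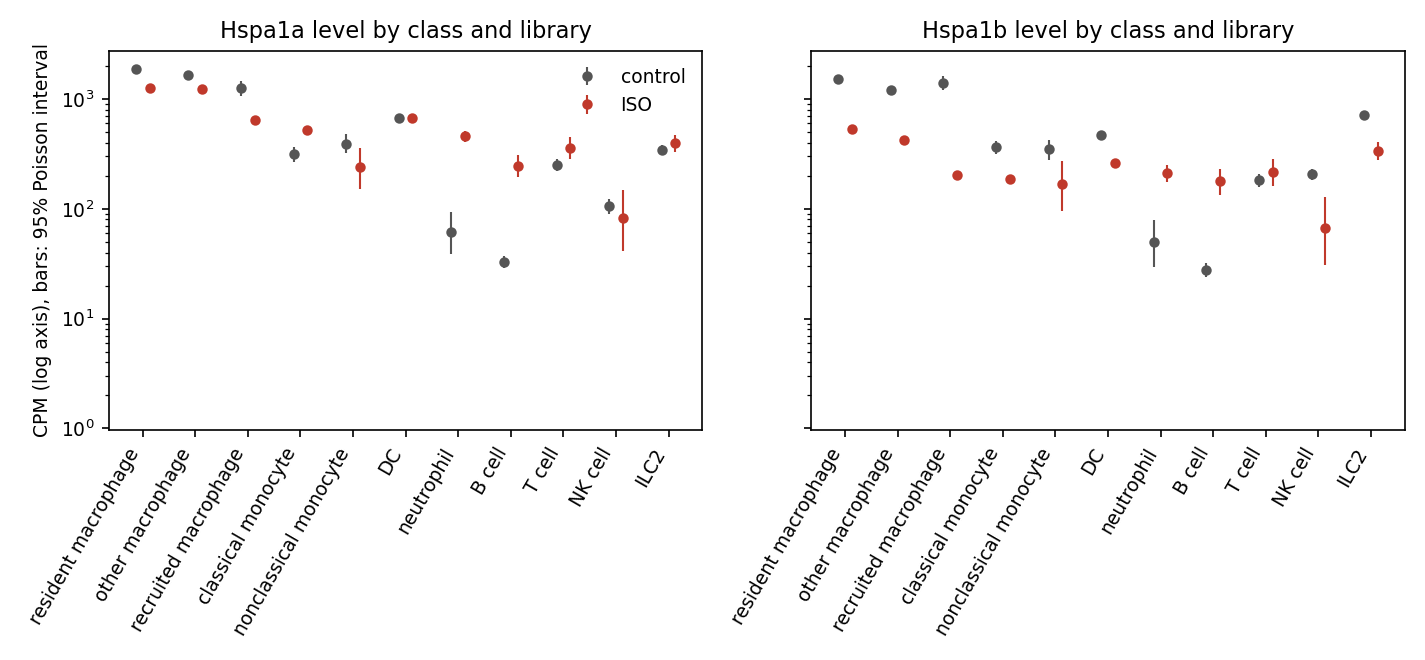
Hspa1a and Hspa1b levels in CPM on a log axis for each class in the control (grey) and ISO (red) library, with exact 95% Poisson intervals as bars. Hspa1b in resident macrophages went from 1512 to 534 CPM and in B cells from 27.8 to 178 CPM, and the control value of classical monocytes, 363 CPM, rests largely on 1 cell.

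The balance between the gene pair shifted toward Hspa1a. Hspa1a made up 55.4% to 70.2% of the Hspa1a and Hspa1b UMIs in resident macrophages, control to ISO, 57.6% to 74.5% in other macrophages, and 58.8% to 72.2% in DCs. In ILC2s, where Hspa1b was the larger in the control, it went from 32.2% to 53.9%, and in classical monocytes from 46.3% to 73.7%, with 1 cell giving much of the control counts. Few cells also gave much of the ILC2 counts. Neutrophils went from 55% to 68.6% and B cells from 54.1% to 58.2%, with control intervals of 38.5% to 70.7% and 49.4% to 58.7% that reach the ISO shares of 68.6% and 58.2%. The pair lies 9951 bases apart on chromosome 17. Of the 50-base windows of the annotated Hspa1a transcript, 58.8% also occur in Hspa1b, but none of the 451 windows in the last 500 bases do, in either direction, which is the end that 3′ libraries read.

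J proteins deliver substrates to HSP70. Among the 42 Dnaj members other than the pseudogene Dnajc19-ps, 12 of 36 tested were called higher and 7 lower in resident macrophages, 11 and 5 of 35 in other macrophages, and 5 and 10 of 35 in classical monocytes. DCs had 9 of 33 higher and none lower, neutrophils 8 of 18 higher and 2 lower, B cells 12 of 35 higher and 3 lower, and ILC2s 5 of 23 higher and 1 lower. The share called higher was below the 20.1% of all genes in monocytes, near the 20.8% of all genes in ILC2s, and above that of all genes in the other classes. The share called lower was below that of all genes in each class, with 21% in resident macrophages and 35.3% in monocytes. Dnajb1, the J protein of the heat shock response, went from 213 to 129 CPM in resident macrophages, -0.72 (-0.94 to -0.51), and from 240 to 136 CPM in other macrophages, -0.81 (-1.01 to -0.62). ILC2s had the opposite sign, from 279 to 422 CPM and 0.60 (0.29 to 0.90), which turned to -0.27 with 2-lineage barcodes kept. Dnaja1, which works with Hspa8, fell past the fold in neutrophils, from 278 to 160 CPM and -0.80 (-1.21 to -0.38), or -1.43 after thinning, and rose past it in B cells, from 123 to 232 CPM and 0.92 (0.55 to 1.26). ILC2s held the highest Dnaja1 level in both libraries, 701 and 856 CPM.

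Dnajb4 and Dnajb6, cytosolic J proteins of the same type as Dnajb1, were called lower in resident macrophages and classical monocytes, though not under each setting. Dnajb6, which holds back aggregation, had a negative ratio in all 7 classes and was called lower in 4 of them. It went from 51 to 29.9 CPM in resident macrophages, -0.76 (-1.23 to -0.33), where thinning each cell to 1000 UMIs gave 0.43. Dnajb4 went from 58 to 31.2 CPM in other macrophages, -0.89 (-1.32 to -0.49), or -0.13 after thinning, and from 51 to 27.6 CPM in resident macrophages, -0.87 (-1.36 to -0.43), which became 0.15 after thinning. Other J proteins were higher. Dnajc2, a ribosome-bound J protein, went from 46.1 to 118 CPM in resident macrophages, 1.35 (1.06 to 1.65), and was called higher in 5 classes. Dnajc21, which takes part in ribosome assembly, was called higher in 5 classes as well, with 11.1 to 63.8 CPM and 2.37 (1.05 to 4.46) in neutrophils, or 0.89 with 2-lineage barcodes kept. Its B cell ratio was -0.32 (-0.94 to 0.20), or 0.49 after thinning. Dnaja2, another partner of Hspa8, was called higher in both macrophage classes and DCs, with 97.3 to 164 CPM and 0.75 (0.53 to 0.97) in resident macrophages. In B cells Dnajc7, which binds both HSP70 and HSP90, went from 234 to 458 CPM, 0.98 (0.72 to 1.22), and Dnajc9, a histone chaperone of dividing cells, from 105 to 44.5 CPM, -1.18 (-2.11 to -0.48). Dnajc8, a splicing-related J protein, was not called in any class, with 114 to 131 CPM and 0.20 (-0.034 to 0.43) in resident macrophages.

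The subunits of the CCT chaperonin rose together in macrophages. All 8 subunits were called higher in resident macrophages, other macrophages, and neutrophils, 7 in classical monocytes, 6 in DCs, 5 in B cells, and 1 in ILC2s, and none was called lower in any class. Only the ILC2 count lies below the share of all genes called higher. Their summed level went from 831 to 1803 CPM in resident macrophages, 865 to 1949 in other macrophages, 964 to 1838 in monocytes, and 1301 to 2154 in DCs. In neutrophils it went from 298 to 841 CPM, in B cells from 1098 to 1748, and in ILC2s from 1087 to 1269. Median log2 ratios were 1.04, 1.21, 0.97, 0.68, 1.53, 0.74, and 0.26 in the order of classes used above. Cct3 went from 93.4 to 260 CPM in resident macrophages, 1.48 (1.28 to 1.68), and Cct8 from 128 to 328 CPM, 1.36 (1.19 to 1.53). Cct4 went from 122 to 227 CPM, 0.89 (0.70 to 1.08), Cct5 from 166 to 332 CPM, Cct7 from 108 to 215 CPM, 0.99, and Cct6a from 32.9 to 80.6 CPM, 1.29. Tcp1, which encodes the alpha subunit and was named after its values were seen, moved least among the subunits in these cells, from 41.7 to 68.2 CPM and 0.71 (0.36 to 1.05). The ratios of the 8 subunits therefore spanned 0.71 to 1.48 in resident macrophages.

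In neutrophils Cct5 had the largest ratio of the 8 subunits, from 25 to 171 CPM, and its log2 ratio was 1.27 with 2-lineage barcodes kept. Cct3 went from 33.4 to 118 CPM in them, 1.77 (0.94 to 2.84), and in B cells from 130 to 245 CPM, 0.92 (0.55 to 1.24). B cells held Tcp1 level, from 59.9 to 57.2 CPM and -0.028 (-0.83 to 0.61), and Cct2 within the fold, from 230 to 273 CPM and 0.26 (-0.082 to 0.56). The ratios of Tcp1, Cct2, and Cct3 thus differed in B cells, but their intervals overlap and the differences were not tested. Some subunit ratios depended on the settings. Thinning each cell to 1000 UMIs turned Cct6a and Cct7 in DCs to -0.16 and -0.021, from 0.95 and 0.66, and stricter limits on other lineages turned Cct7 in neutrophils to -0.12, from 0.84. The 83 control DCs had a median of 11263 UMIs before thinning, so the thinned ratios rest on few UMIs. Their counting error is not given, and a turned sign after thinning may be counting error alone. Prefoldin hands unfolded actin and tubulin to CCT, and 5 of its 6 listed genes were found. Both macrophage classes, DCs, and neutrophils had 3 of the 5 called higher, monocytes 2, ILC2s 1, and B cells none. That of ILC2s is near the 20.8% of all genes called higher, and that of B cells below their 26.2%. Those of the other classes lie above the share of all genes, which ranged from 18.6% in DCs to 32.6% in neutrophils. Pfdn4 went from 28.5 to 63.7 CPM in resident macrophages, 1.16 (0.77 to 1.54), and Pfdn1 from 30.3 to 89.5 CPM in DCs, 1.54. Pfdn5, by contrast, stayed within the fold in each class, from 473 to 437 CPM and -0.11 (-0.23 to 0.0098) in resident macrophages.

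**Figure D3:**
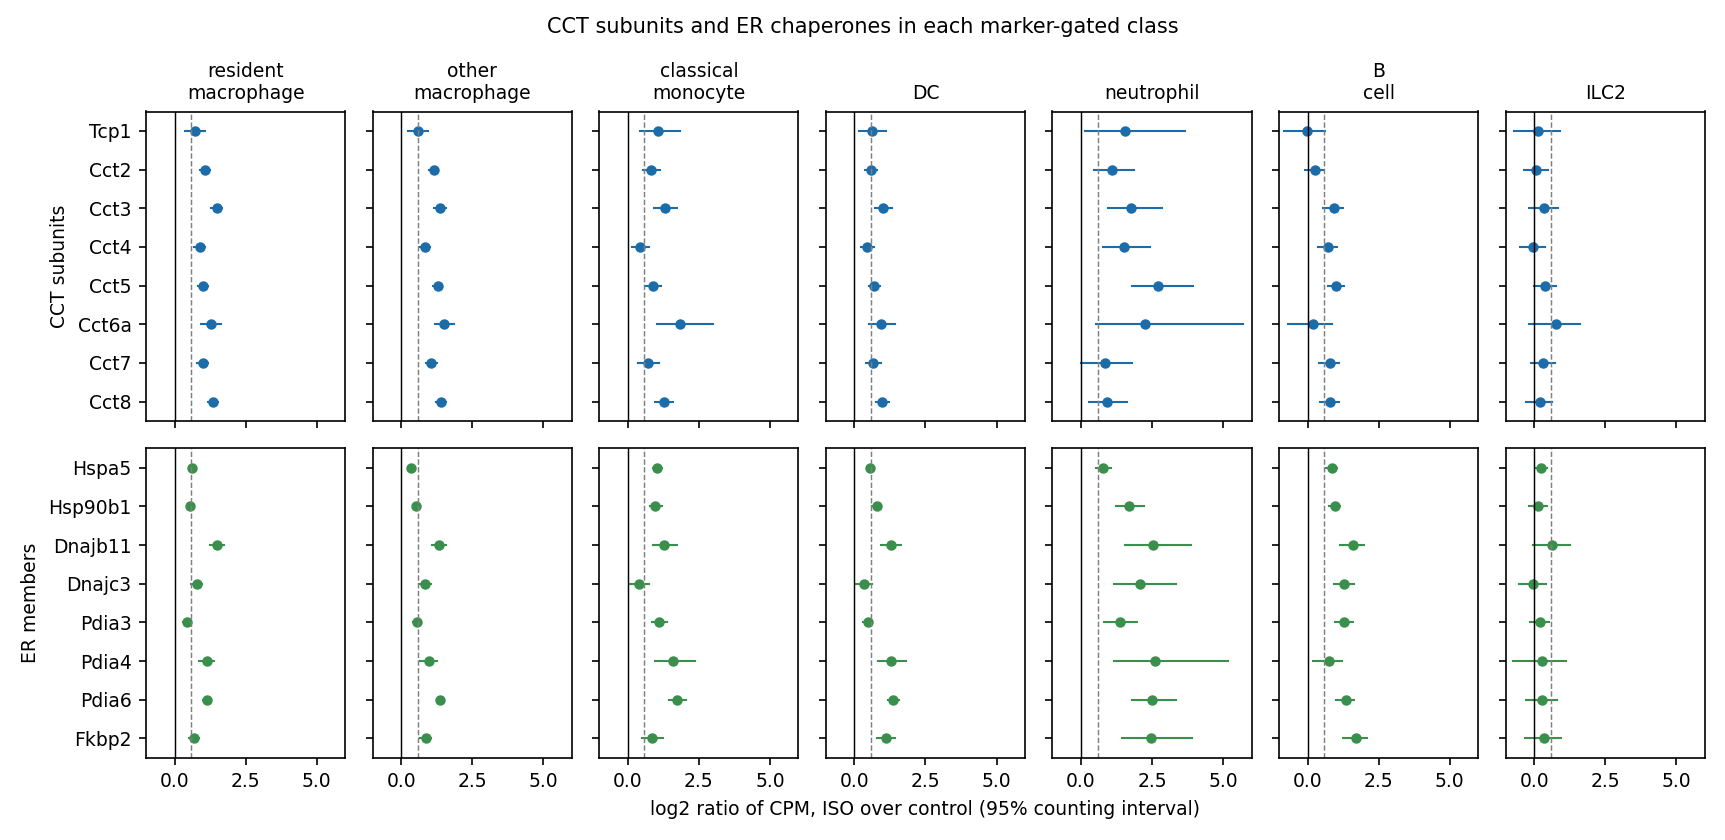
Log2 ratios of CPM, ISO over control, with exact 95% counting intervals (bars) for the 8 CCT subunits (top) and 8 ER members (bottom) in each class, with the 1.5 fold dashed. Cct3 ranges from 0.34 in ILC2s to 1.77 in neutrophils, and Pdia6 from 0.27 to 2.49 in the same classes.

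Hspe1, Hspd1, and Hspa9 had positive ratios in all 7 classes, with the smallest of each in ILC2s. Hspe1 and Hspd1 encode HSP10 and HSP60, which form the folding chamber of the mitochondrial matrix, and their annotated genes overlap by 112 bases on chromosome 1. Hspe1 went from 219 to 491 CPM in resident macrophages, 1.16 (1.03 to 1.30), from 247 to 458 CPM in other macrophages, 0.89 (0.75 to 1.02), and from 33.4 to 160 CPM in neutrophils, 2.21 (1.40 to 3.26). B cells went from 350 to 664 CPM, 0.93 (0.71 to 1.13), and in ILC2s, from 419 to 434 CPM, the ratio of 0.055 (-0.23 to 0.33) was below 0 relative to the median of all genes. The neutrophil ratio was 0.97 with 2-lineage barcodes kept and 3.66 with stricter limits. Hspd1, its partner, was called higher in 5 classes and went from 125 to 198 CPM in resident macrophages, 0.67 (0.47 to 0.86), and from 107 to 233 CPM in other macrophages, 1.12 (0.92 to 1.31). Hspa9, the HSP70 that pulls proteins through the inner membrane, was called higher in 4 classes, from 59 to 148 CPM and 1.31 (0.83 to 1.87) in monocytes and from 92.4 to 167 CPM and 0.85 (0.63 to 1.07) in resident macrophages, which became 0.52 and 0.17 after thinning. B cells and ILC2s had Hspa9 ratios of 0.18 (-0.30 to 0.60) and 0.17 (-0.40 to 0.70).

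Dnajc15, a J protein of the inner membrane import channel, was called higher in 5 classes, including ILC2s, where it went from 43.8 to 125 CPM, 1.51 (0.86 to 2.15), or 0.78 with 2-lineage barcodes kept. In resident macrophages it went from 52.7 to 113 CPM, 1.10 (0.81 to 1.38). Its relative Dnajc19 went from 13.9 to 29.5 CPM in neutrophils, 0.99 (-0.38 to 2.86), or 0.27 with cells weighted equally. Dnajc4, of less certain role, went from 18.1 to 34.5 CPM in other macrophages, 0.93 (0.42 to 1.44), and Dnajc11, a part of the complex that shapes the inner membrane, from 39.4 to 25.8 CPM in monocytes, -0.64 (-1.23 to 0.084), or -1.94 after thinning. That was the only mitochondrial member called lower in a class. Of 10 other genes of mitochondrial import and quality control, 4 were called higher and none lower in resident macrophages, 6 and none in other macrophages, 5 and none in monocytes, and 3 and 1 in DCs. B cells had 4 higher and 3 lower, ILC2s 4 higher and 1 lower of 7 tested, and neutrophils 1 of each among 2. The share called higher was above that of all genes in each class, though it is 1 gene in neutrophils. The share called lower was below that of all genes in macrophages, monocytes, and DCs, near the 14.6% of all genes in ILC2s, and above the 26.3% in B cells. It was also above the 25.1% in neutrophils, where it is 1 gene of 2. Grpel1, the exchange factor of Hspa9, went from 49.3 to 107 CPM in resident macrophages, 1.11 (0.82 to 1.41), and Clpp, the matrix protease, from 18.3 to 43.4 CPM, 1.25 (0.77 to 1.73). Yme1l1, a protease of the inner membrane, went from 118 to 63.6 CPM in B cells, -0.86 (-1.61 to -0.26).

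In the ER, the isomerase Pdia6 had larger ratios than the main chaperone Hspa5. Hspa5, the ER form of HSP70 also known as BiP, went from 792 to 1217 CPM in resident macrophages, 0.62 (0.54 to 0.70), from 932 to 1191 CPM in other macrophages, 0.35 (0.28 to 0.43), and from 606 to 1244 CPM in classical monocytes, 1.03. DCs went from 871 to 1271 CPM, neutrophils from 470 to 815, B cells from 489 to 881, and ILC2s from 611 to 726, with log2 ratios of 0.55, 0.79, 0.85, and 0.25. Its interval lay above 0 in all 7 classes. Hsp90b1, the ER form of HSP90, went from 524 to 773 CPM in resident macrophages, 0.56 (0.46 to 0.66), and from 120 to 390 CPM in neutrophils, 1.69 (1.24 to 2.21), or 0.68 with 2-lineage barcodes kept and 2.59 after thinning. Pdia6, a disulfide isomerase, had larger ratios in each class than Hspa5 had. It went from 219 to 483 CPM in resident macrophages, 1.14, from 198 to 518 CPM in other macrophages, 1.38 (1.25 to 1.52), and from 168 to 562 CPM in monocytes, 1.73 (1.45 to 2.05). DCs went from 233 to 605 CPM, 1.37 (1.17 to 1.58), neutrophils from 47.3 to 272 CPM, 2.49 (1.80 to 3.34), or 1.77 with 2-lineage barcodes kept, and B cells from 121 to 305 CPM, 1.34 (1.02 to 1.64). ILC2s stayed within the fold, from 107 to 128 CPM and 0.27 (-0.29 to 0.79), but had 1.61 with 2-lineage barcodes kept.

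Dnajb11, a cochaperone of Hspa5, and the cytosolic Fkbp1a were the only members called higher in all 7 classes with the settings used here. Some alternatives left each short of the fold in a class. Dnajb11 in ILC2s had 0.52 with technical UMIs left out of the totals and 0.53 relative to the median of all genes. Fkbp1a in resident macrophages had 0.52 with technical UMIs left out, 0.56 with cells weighted equally, and 0.58 with 2-lineage barcodes kept. Dnajb11 went from 67.1 to 188 CPM in resident macrophages, 1.49 (1.25 to 1.73), from 55.2 to 165 CPM in B cells, 1.59, and from 22.3 to 135 CPM in neutrophils, 2.52 (1.56 to 3.86), or 1.41 with 2-lineage barcodes kept. In ILC2s it went from 62.7 to 97.2 CPM, and its interval of -0.030 to 1.27 reached below 0. Pdia4 went from 32.2 to 99 CPM in monocytes, 1.58 (0.95 to 2.38), and Pdia3, the isomerase for glycoproteins, from 209 to 451 CPM, 1.10 (0.84 to 1.39). Dnajc3, which also restrains the ER stress kinase, went from 99.2 to 242 CPM in B cells, 1.29 (0.92 to 1.63), but was within the fold in monocytes, DCs, and ILC2s. Pdia3, Pdia4, Pdia6, Dnajb11, Dnajc3, and Hspa5 thus all had positive ratios in the myeloid classes and B cells. Other ER members went the other way in some classes. Dnajb9, which feeds the degradation of misfolded proteins, went from 65.9 to 41.7 CPM in resident macrophages, -0.65 (-1.05 to -0.28), and from 78.7 to 41.6 CPM in monocytes, -0.93 (-1.36 to -0.44), or -2.41 and -1.60 after thinning. In other macrophages its ratio of -0.65 became 0.43 after thinning. Dnajb14, a J protein of the ER membrane, went from 73.3 to 38.1 CPM in monocytes, -0.96 (-1.41 to -0.45), and 0.0069 after thinning, and from 15.1 to 38.1 CPM in B cells, 1.39 (0.34 to 2.19). Dnajc10, a reductase of the same pathway, went from 31.2 to 9.54 CPM in B cells, -1.49 (-4.00 to -0.15), with 0.29 for 2-lineage barcodes kept and -2.19 after thinning. Dnajc1, a J protein of the ER membrane, was called higher in B cells alone, from 44.5 to 92.2 CPM and 1.07, and of the compared classes had its highest levels in ILC2s, from 94.5 to 112 CPM. Fkbp7, an ER isomerase, had 29 UMIs in control and 1 UMI in ISO resident macrophages, a log2 ratio of -3.09 (-9.001 to -1.06), and was named after its values were seen.

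Of 23 other genes of ER quality control and the unfolded protein response, 10 of 21 tested were called higher and 1 lower in resident macrophages, 8 and 1 of 21 in other macrophages, and 8 and 2 of 22 in monocytes. DCs had 9 higher and none lower of 21, neutrophils 8 and 3 of 19, B cells 11 and 1 of 21, and ILC2s 4 and none of 18. The share called higher was near the 20.8% of all genes in ILC2s and above that of all genes in the other classes, and the share called lower was below it in each class. The secreted ER stress factor Manf went from 162 to 388 CPM in resident macrophages, 1.26 (1.11 to 1.42), and from 39 to 241 CPM in neutrophils, 2.58 (1.84 to 3.53). Sdf2l1, which assists Hspa5, went from 83.9 to 210 CPM in resident macrophages, 1.32 (1.11 to 1.54). Creld2, another ER stress gene, went from 10.7 to 72.6 CPM in monocytes, 2.64 (1.63 to 4.21). Calr, the lectin chaperone of the lumen, went from 369 to 986 CPM in monocytes, 1.42 (1.22 to 1.63), and its membrane-bound relative Canx was level in resident macrophages, from 380 to 380 CPM and -0.00061 (-0.13 to 0.13). Xbp1, a transcription factor of the response, went from 127 to 223 CPM in resident macrophages, 0.81, and from 75.8 to 273 CPM in B cells, 1.86 (1.51 to 2.18). Other factors of the response had negative ratios in some classes. Atf4 went from 453 to 330 CPM in other macrophages, -0.46 (-0.59 to -0.33), Atf6 from 113 to 61.9 CPM in monocytes, -0.87 (-1.24 to -0.47), and Ddit3, which encodes the factor CHOP, from 159 to 54.4 CPM in neutrophils, -1.53 (-2.19 to -0.91). In ILC2s, by contrast, Atf6 was called higher, 0.91 (-0.072 to 1.81). Genes of this and the other lists were picked for naming after their values were seen.

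The FK506-binding proteins are prolyl isomerases, and their ratios depended on the gene. Fkbp1a, the target of the drug FK506, went from 175 to 264 CPM in resident macrophages, 0.60 (0.43 to 0.77), from 107 to 259 CPM in monocytes, 1.26 (0.90 to 1.66), and from 16.7 to 157 CPM in neutrophils, 3.13 (2.06 to 4.71). Thinning gave 2.33 in monocytes, and keeping 2-lineage barcodes 1.28 in neutrophils. The ER member Fkbp2 was called higher in 6 classes, from 54.7 to 175 CPM in B cells, 1.69 (1.24 to 2.08). Fkbp4, an HSP90 partner of steroid receptors, was called higher in 5 classes, with 73.7 to 126 CPM and 0.77 (0.51 to 1.03) in resident macrophages, but went from 113 to 121 CPM in B cells, 0.12 (-0.41 to 0.57), or -0.89 after thinning. Fkbp8, of the outer mitochondrial membrane, was called higher in other macrophages alone, from 86.9 to 133 CPM and 0.62 (0.38 to 0.86). Small heat shock proteins were scarce in leukocytes. Hspb1, the most studied of them, had 58.5 to 60.3 CPM in resident macrophages and fewer than 20 UMIs in neutrophils, B cells, and ILC2s. In DCs it went from 24.2 to 12.5 CPM, -0.96 (-1.78 to -0.11), and both equal weighting of cells and stricter limits turned its sign, to 0.31 and 0.40. Its ratio in monocytes was past the fold the other way, 0.64 (-0.72 to 3.15), with 3 control UMIs. Hspbp1, an exchange factor of HSP70, was called higher in 4 classes, with 18.2 to 41.1 CPM and 1.14 (0.44 to 1.99) in DCs.

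Of 19 heat shock factors and cochaperones outside the member list, resident macrophages had 6 of 17 called higher and 3 lower, other macrophages 5 and 2 of 17, monocytes 6 and 2 of 18, and DCs 5 and 1 of 17. Neutrophils had 6 of 10 higher and none lower, B cells 4 and 2 of 16, and ILC2s 2 and 2 of 13. The share called higher was near the 26.2% of all genes in B cells, below the 20.8% in ILC2s, and above that of all genes in the myeloid classes. The share called lower was near the 14.6% of all genes in ILC2s and below that of all genes in the other classes. Stip1, which links HSP70 to HSP90, went from 76.8 to 118 CPM in resident macrophages, 0.62 (0.36 to 0.88), and from 34 to 87.1 CPM in monocytes, 1.32 (0.71 to 2.10). Bag1, an exchange factor, went from 99.9 to 196 CPM in other macrophages, 0.97 (0.76 to 1.18), whereas the stress-induced Bag3 went from 58 to 32.6 CPM, -0.82 (-1.25 to -0.43). Hsf1, the master factor of the heat shock response, was level in resident macrophages, from 19.8 to 19.7 CPM and 0.0096 (-0.62 to 0.59). Among members placed elsewhere, Dnajc13, an endosomal J protein, went from 76.2 to 124 CPM in B cells, 0.72 (0.19 to 1.17), and from 98.3 to 69.9 CPM in resident macrophages, -0.49 (-0.79 to -0.20). Dnajc5, of secretory vesicles, went from 136 to 84.9 CPM in monocytes, -0.69 (-1.02 to -0.33), or -1.51 after thinning.

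The 21 members with fewer than 20 UMIs in each compared class are named here once. They are Dnaja4, Dnajb3, Dnajb7, Dnajc6, Dnajc19-ps, Dnajc22, Dnajc28, Fkbp10, Fkbp14, Hspa1l, Hspa9-ps1, Hspa12a, Hspa12b, Hspb2, Hspb3, Hspb6, Hspb8, Hspb9, Hspe1-ps2, Hspe1-ps3, and Hspe1-ps5. Of these, 6 are cytosolic, 2 are ER, and 13 are other members, and several are known from muscle, testis, or as pseudogenes.

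The share of cells with at least 1 UMI shows how widely a gene was found. Shares are given after thinning each cell to 1000 UMIs, with exact Clopper-Pearson 95% intervals, since depth differed between libraries. Hspa1a was found in 54.8% (50.4% to 59.2%) of control and 46.3% (39% to 53.7%) of ISO resident macrophages, and in 76.2% and 77.7% without thinning. Among B cells it was found in 2.57% of control cells, with 4 left out for having under 1000 UMIs, and in 11.8% (5.22% to 21.9%) of ISO cells, or 8.6% and 20.6% without thinning. Those of B cells were the lowest of the compared classes in both libraries, at median depths of 3234 and 4476 UMIs against 6572 and 7094 in resident macrophages. Cct8 was found in 9.27% of control and 26.1% (19.9% to 33%) of ISO resident macrophages, or 53.7% and 80.8% without thinning. Pdia6 went from 13.4% to 40.4% of classical monocytes, or from 62.7% to 92.5% without thinning. In ILC2s it went from 6.98% to 6.02%, or from 37.2% to 34.9%. The lowest shares among the compared classes were those of neutrophils for Cct8, 3.64% and 8.91%, and for Pdia6 those of control neutrophils, 2.73%, and ISO ILC2s. No class is known to lack these genes, so the part of free RNA was not measured. Shares as low as the lowest, such as Hspa1a in B cells and Pdia6 in ISO ILC2s, cannot be told from free RNA. No cell of these classes was left out at 1000 UMIs but the 4 B cells.

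Promoters of the members were searched for known response elements, as a description with no test. Of the 100 members, 80 matched a promoter in the RefSeq table, 300 bases each on build GRCm38.p6, and both strands were searched. The 20 without a promoter, which could not be searched, include Hsp90aa1, Hsp90ab1, Hspa8, Hspa9, and Cct4. The heat shock element GAANNTTCNNGAA occurs in 198 of 32851 promoters, or 0.603%, and among members in Dnajb6, Hsph1, Hspd1, and Hspe1. Its shorter core GAANNTTC, which lies within each longer match, occurs in 7.86% of all promoters, in 12 of 39 cytosolic, 2 of 6 mitochondrial, 0 of 19 ER, and 1 of 16 other members. The ER stress response element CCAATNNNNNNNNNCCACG occurs in 0.119% of all promoters, and among members in the ER genes Dnajc3, Hsp90b1, Hspa5, and Pdia6. Among the members searched, the heat shock elements were thus found in no ER promoter, and the ER elements in ER members alone. A match shows only that the letters are present.

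The sequences of 5 members whose levels are described above follow, so that the elements can be seen in place, with capitals marking the match. They run 5′ to 3′ on the gene's strand. Hspe1 lies at chr1:55087898-55088197 on the plus strand, and its capitals hold 2 overlapping matches to the longer heat shock element. Hspa1a, at chr17:34972107-34972406, and Hspa1b, at chr17:34959189-34959488, lie on the minus strand, hold the shorter core at the same place, and are identical at 296 of 300 bases, although their ratios differed. Hspa5, at chr2:34771840-34772139, and Pdia6, at chr12:17266339-17266638, are on the plus strand with the ER stress response element.
Hspe1: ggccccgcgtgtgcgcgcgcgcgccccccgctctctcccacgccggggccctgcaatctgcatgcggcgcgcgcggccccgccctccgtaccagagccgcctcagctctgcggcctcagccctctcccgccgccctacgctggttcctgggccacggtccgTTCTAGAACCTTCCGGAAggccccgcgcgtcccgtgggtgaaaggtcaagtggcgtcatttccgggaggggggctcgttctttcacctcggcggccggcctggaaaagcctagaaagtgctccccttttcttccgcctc
Hspa1a: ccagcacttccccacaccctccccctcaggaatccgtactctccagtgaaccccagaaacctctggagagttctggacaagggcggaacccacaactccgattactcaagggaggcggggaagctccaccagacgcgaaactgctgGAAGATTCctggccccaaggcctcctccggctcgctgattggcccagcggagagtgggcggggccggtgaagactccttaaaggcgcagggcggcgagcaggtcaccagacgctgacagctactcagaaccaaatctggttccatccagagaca
Hspa1b: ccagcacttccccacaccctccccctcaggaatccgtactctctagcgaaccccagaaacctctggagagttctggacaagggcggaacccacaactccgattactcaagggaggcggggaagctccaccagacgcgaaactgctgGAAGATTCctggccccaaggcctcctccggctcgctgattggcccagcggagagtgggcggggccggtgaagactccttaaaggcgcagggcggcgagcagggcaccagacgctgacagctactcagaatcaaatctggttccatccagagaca
Hspa5: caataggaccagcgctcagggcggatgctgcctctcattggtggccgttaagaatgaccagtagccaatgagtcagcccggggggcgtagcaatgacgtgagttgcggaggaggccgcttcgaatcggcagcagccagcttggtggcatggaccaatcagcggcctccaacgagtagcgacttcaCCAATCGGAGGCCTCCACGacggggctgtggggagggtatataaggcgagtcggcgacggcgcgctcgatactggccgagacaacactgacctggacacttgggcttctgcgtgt
Pdia6: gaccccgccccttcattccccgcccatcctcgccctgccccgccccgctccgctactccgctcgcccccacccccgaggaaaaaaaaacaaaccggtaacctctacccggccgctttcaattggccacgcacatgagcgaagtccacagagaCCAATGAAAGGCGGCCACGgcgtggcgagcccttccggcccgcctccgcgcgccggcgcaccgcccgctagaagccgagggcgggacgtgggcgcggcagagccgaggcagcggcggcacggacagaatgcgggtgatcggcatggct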

How the data were processed

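The deposited values are UMI counts per gene and barcode, without normalization, and they include barcodes that the cell filters remove. The authors made them with bcl2fastq 2.19.1.403, UMI-tools 1.0.0, STAR 2.7.3a on mm10, and featureCounts 1.6.4.

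Kept barcodes had over 500 genes, below 6000 genes, and less than 25% of UMIs from the mitochondrial genome. This left 5641 control and 5437 ISO cells with medians of 4790 and 8537 UMIs. The libraries share 15 barcodes. Cells were gated on summed markers per 10000 UMIs, with limits chosen after seeing the marker values. Barcodes with markers of a further lineage were left out, which also leaves out doublets of 2 lineages, and no doublet caller was run. All 100 members matched GENCODE M21 by symbol. The members and gene lists were chosen with earlier results of these data known.

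UMIs were summed per class and library, and 0.5 UMI was added for log2 ratios. The scaling, UMI minimum, UMI added, fold, cell weights, gate limits, mitochondrial limit, depth, and shared barcodes were each varied. Intervals are exact, conditional binomial for ratios, Poisson for levels, and Clopper-Pearson for shares. Any member may be named, and values are given for those with at least 100 CPM in either library of a class, and for the member with the largest ratio each way in each compartment and class among those with at least 20 CPM in the higher library and 50 UMIs. Fkbp7, Hspa2, and Tcp1 fall outside this rule and were chosen after their values were seen. Python 3.11.15, numpy 2.4.6, scipy 1.17.1, pandas 2.3.3, and matplotlib 3.10.9 were used.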

Additional observations from a re-analysis of the deposited data

Results flagged for a closer look

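For 5 members, a class had a called ratio above 0 and another class a called ratio below 0, each with its counting interval on the same side of 0. The pairs named are those farthest apart, the classes share both libraries, and none of these differences was tested. Hspa1b differed by 4.21 in log2 between B cells, 2.69, or 0.66 with 2-lineage barcodes kept, and other macrophages, -1.52. The ER reductase Dnajc10 differed by 2.64 between ILC2s, 1.15, and B cells, -1.49, which turned to 0.29 with 2-lineage barcodes kept. Dnajb14, of the ER membrane, differed by 2.35 between B cells, 1.39, and classical monocytes, -0.96, which became 0.0069 after thinning to 1000 UMIs. Dnaja1 differed by 1.72 between B cells, 0.92, and neutrophils, -0.80. Dnajb1 differed by 1.42 between ILC2s, 0.60, or -0.27 with 2-lineage barcodes kept, and other macrophages, -0.81.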

How the results depend on the processing

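No paired analysis was possible because each group is a single library of pooled hearts. Results were recomputed under 12 alternatives. Of the recomputed group medians, 227 were counted as unmoved, 2 as moved, and 1 turned. A median counted as unmoved could still differ, since neutrophil medians with 2-lineage barcodes kept, given above, were well below those with the main gates. Of the counts of members, 125 stayed within 1.5 times the value given and 43 did not. Of the single-gene ratios, 3464 moved by less than their counting error, 225 by more, and 17 turned. A ratio is counted as turned where it was called and its sign changed, and 116 further changes of sign were in ratios that were not called. Of the levels, 99 moved and 33 did not, and of the shares of cells, 292 moved and 60 did not. The share of members called higher was above that of all genes in each class but ILC2s under each setting, except that it was above in all 7 with 2-lineage barcodes kept and not in DCs after thinning. The share called lower was below that of all genes in all 7 under each. The cause of the changes below was not tested, except that a higher fold or UMI minimum calls fewer genes by construction.

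With a fold of 2, members called higher were 12 in resident macrophages, 13 in other macrophages, 14 in monocytes, 9 in DCs, 12 in B cells, and 2 in ILC2s, and members called lower were 2, 3, 3, 2, and, in neutrophils, 0. Shares higher were 15.6% against 7.48% of all genes in resident macrophages, 16.4% against a near 14.4% in B cells, and 3.45% against 7.71% in ILC2s. With a minimum of 1 UMI, 50 were higher in B cells, 57 in neutrophils, and 19 in ILC2s, and 18 lower in other macrophages, 30 in monocytes, 11 in DCs, 7 in neutrophils, and 9 in ILC2s. Those higher were 54.4% of B cell members, near the 50.2% of all genes, 69.5% against 41.3% in neutrophils, and 22.6% against 29.3% in ILC2s. With a minimum of 100 UMIs, 15 were higher in neutrophils and 2 in ILC2s, and 5 lower in resident macrophages, 9 in monocytes, 1 in DCs, and 1 in neutrophils. Centred on the median of all genes, 5 were higher in ILC2s and 8 lower in monocytes, and with mitochondrial-genome, ribosomal protein, and Gm26924 UMIs left out of the totals, 5 were higher in ILC2s.

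With cells thinned to 1000 UMIs, the cytosolic median of other macrophages was 0.69, 11 members were higher in DCs, 9 in neutrophils, and 4 in ILC2s, and 5 were lower in resident macrophages, 4 in other macrophages, 2 in DCs, 1 in neutrophils, 9 in B cells, and 1 in ILC2s. Thinning turned Cct6a (-0.16) and Cct7 (-0.021) in DCs, Dnajb4 (0.15) and Dnajb6 (0.43) in resident macrophages, Dnajb9 in other macrophages (0.43), and Dnajb14 in monocytes (0.0069), and the mitochondrial median of neutrophils could not be given, as no member reached the minimum. These thinned ratios rest on few UMIs from a single random draw, and their counting error is not given. With 2-lineage barcodes kept, 22 members were higher and 8 lower in ILC2s, 10 lower in neutrophils, and 13 lower in other macrophages. This turned Hspa1a (-0.56), Hspa1b (-1.37), Hsph1 (-0.33), and Dnajc7 (-0.048) in neutrophils, Dnajb1 in ILC2s (-0.27), and Dnajc10 in B cells (0.29). With limits on other lineages halved, the mitochondrial median was -0.069 in ILC2s and 3.66 in neutrophils, where it equals the ratio of Hspe1. In neutrophils 16 members were then higher and 4 lower. Cct7 in neutrophils turned to -0.12, Hspa1b in monocytes to 0.84, and Hspb1 in DCs to 0.40, which was 0.31 with cells weighted equally. Leaving out the cell with most UMIs, chosen after seeing the data, turned Hspa1b in monocytes to 0.27. Hspa1a in ILC2s, which was not called, went from 0.21 to -0.026.

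Leaving technical UMIs out of the totals raised CPM by 11.6% to 61.1% across the classes and libraries, and more in the control than in ISO in each class but neutrophils. Barcodes shared by the libraries, a 10% mitochondrial limit, and 1 UMI added in place of 0.5 changed no median or count enough to be counted as moved or turned. Neutrophils had medians of 2775 and 4963 UMIs per cell.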

Other observations

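The 4 classes with fewer than 50 cells in a library were not compared, and their levels are given as values. Recruited macrophages, with 14 control and 729 ISO cells, had Hspa1b at 1407 to 203 CPM, Hspa1a at 1262 to 645 CPM, and Dnajb1 at 251 to 79.6 CPM, control to ISO. Their ER sum was 2395 to 4370 CPM, with Pdia6 at 198 to 618 CPM, and their cytosolic sum 10296 to 10290 CPM. NK cells (410 and 27 cells) had Hspe1 at 338 to 869 CPM and Hsp90ab1 at 1702 to 3731 CPM, T cells (189 and 39) had Hspa1a at 252 to 361 CPM and Pdia6 at 104 to 357 CPM, and nonclassical monocytes (60 and 15) had Hsp90aa1 at 326 to 995 CPM. Hspa1a made up 47.3% to 76% of the pair's UMIs in recruited macrophages and 33.9% to 55% in NK cells. The NK value in ISO rests on 11 Hspa1a and 9 Hspa1b UMIs, and its interval of 31.5% to 76.9% holds the control share. T cells went from 58.1% to 62.6% and nonclassical monocytes from 53.1% to 59%.

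Ranks of Hspa1a over single cells were compared with those of other genes within a class and library. In control and ISO resident macrophages, Spearman's rho with Hspa1b was 0.80 and 0.76 over 518 and 188 cells, with Jun 0.45 and 0.47, and with Hspa5 0.051 and -0.015. In control and ISO B cells the values with Hspa1b were 0.081 and 0.71 and with Jun 0.057 and 0.50. Neutrophils gave 0.28 and 0.65 with Hspa1b and -0.14 and 0.11 with Jun. In resident macrophages Hspa5 and Pdia6 gave 0.18 and 0.47. Cells of a library share their depth range and handling, so these values are a description.

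Gates have soft edges. Of the gated cells, 55 of 518 control and 25 of 188 ISO resident macrophages, and 7 of 14 control and 252 of 729 ISO recruited macrophages, lay within 25% of a limit of their gate. With 1 library per group, all differences here could equally belong to a library, and counting intervals do not cover variation between mice.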
